A study of Mus musculus with 10 samples.

Results

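The genes described here are 32 markers of adipose progenitors and stromal cells, listed by gene name as markers of these cells. Each was read from its brightest probe set annotated to that symbol alone, by the mean over 10 arrays. Such a probe set was found for 30 of the 32, among 19937 genes that had one. Ly6a and Cd38 had none in the platform annotation used here and were not analysed. A gene entered the test if it was brighter than the 25th percentile of the array on 5 or more of the 10 arrays. That left 27 of the 30 markers among 16339 genes. Cd55, Fmo2 and Vit fell below this level.

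The arrays measured 5 High and 5 Low clonal lines of 3T3-L1, a mouse fibroblast line that can be driven to become fat-storing adipocytes with insulin, dexamethasone and IBMX. Each line was grown from a single colony and kept below confluence. Lines that stored much triglyceride after the cocktail were classed as High, and lines that stored little as Low. RNA came from untreated, proliferating cells in serum-containing medium, 1 array per line, so each class is 5 separately grown clones of the same parent line. The High clones are named 3F4, 4D2, 4E3, 5C4 and 5D4 and the Low clones 1E7, 2D7, 2F1, 4D11 and 4H4, and per-line values below follow this order. These are cultured cells with no blood vessels or immune cells around them, and the markers were mostly defined in living fat tissue.

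In mouse fat, the cells that give rise to adipocytes belong to a PDGF receptor alpha positive stromal population. Within it, DPP4 and PI16 mark interstitial progenitors, ICAM1 marks cells further along towards the adipocyte, and CD142, the product of F3, marks stromal cells described as restraining adipogenesis. Mural cells, which wrap around vessels, carry PDGF receptor beta, NG2 (Cspg4) and CD146 (Mcam).

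Signals are log2 intensities after RMA, so 1 unit is a doubling, and a probe set's brightness depends on its probes as well as on the transcript. Levels of different genes are therefore not ranked against each other. A gene's place above or below an array percentile has the same limit and is given as a description. Median signals lay between 7.74 and 7.84 in the 10 arrays. As a check of cell type, the fibroblast genes Col1a1 and Vim measured at least 12.38 and 14.05 in every line. The 8 fibroblast genes tested, these included, were above the array median in all 10 arrays. Lum and Fap of the same list went the other way and lay below the 25th percentile in all 10. Ptprc, the pan-leukocyte marker CD45, stayed below the 25th percentile in all 10 arrays, and Pecam1, the endothelial marker CD31, stayed below the array median. Other leukocyte and endothelial genes were brighter, with Cd68, Cd14 and Cldn5 above the array median in all 10 arrays and Lyz2 in 6. The mature adipocyte hormone gene Adipoq also lay below the 25th percentile throughout, at 5.71 to 6.08 in High and 5.78 to 5.99 in Low lines. Plin1, the lipid droplet protein perilipin, was above the array median in all 10 arrays, at 7.86 to 8.36 in High and 7.87 to 8.07 in Low lines. Cidec, Pck1, Slc2a4 and Retn, the other mature adipocyte genes tested, were above the 25th percentile in all 10 arrays, as was Pecam1. Like Pecam1, Cidec, Pck1 and Slc2a4 did not exceed the array median in any array, and Retn exceeded it in 1.

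None of the 27 markers tested differed between High and Low lines at a limma adjusted p under 0.05, and the smallest adjusted p was 0.49, for Cd9. Of all 16339 genes, 1 passed, or 0.00612%. At an unadjusted p under 0.05 there were 3 markers, Cd9, Thy1 and Pdgfra, or 11.1% of the 27. The background at that level was 7.95% of all genes, made up of 3.16% with a higher and 4.79% with a lower signal in High lines, and all 3 markers were on the higher side. The values of High and Low lines overlapped for all 27 markers, where 1.57% of all genes did not overlap. Differences above 0 were found for 18 markers and below 0 for 9, so 66.7% were positive, against 58% of all genes. The median difference, High minus Low, was 0.060 over the markers and 0.021 over all genes.

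**Figure D1:**
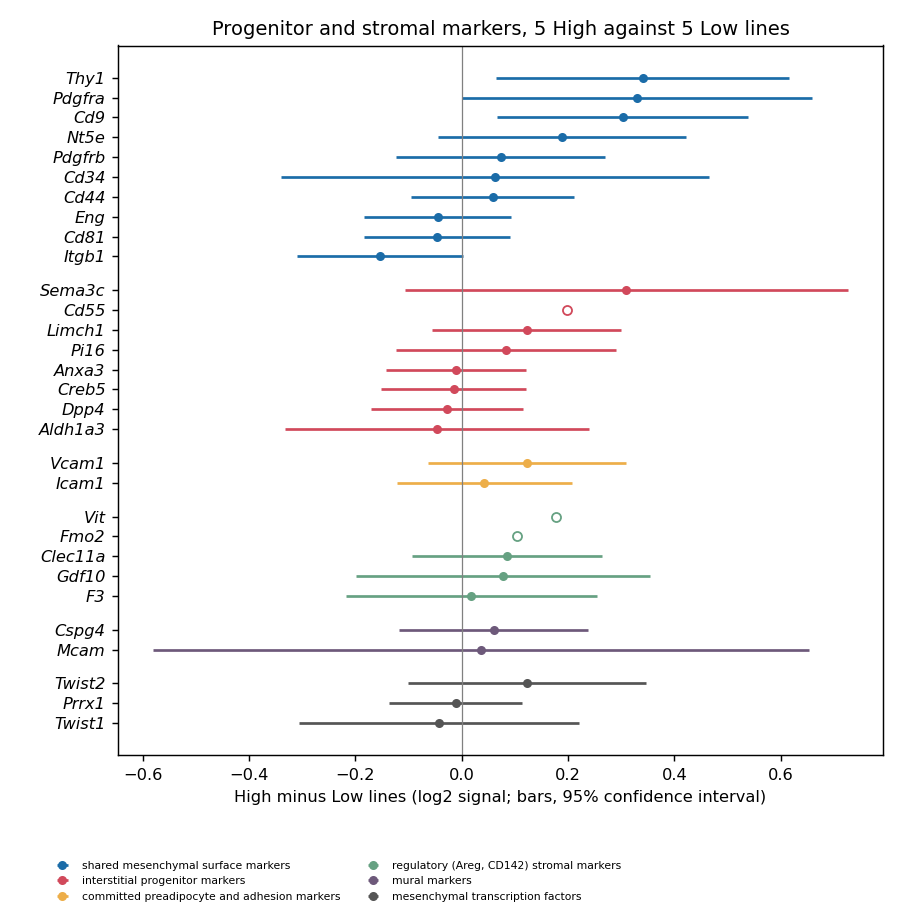
High minus Low difference of the 30 markers with a probe set, in log2 signal (x axis), grouped by list and sorted within it; bars are limma 95% confidence intervals and open circles are the 3 markers below the signal filter, which have no interval. The intervals of Thy1, Cd9 and Pdgfra lie above 0 before adjustment, and that of Mcam is the widest, from -0.58 to 0.65.

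The shared mesenchymal surface markers held the 3 markers with the smallest p. Pdgfra, the receptor that defines the progenitor population, measured 11.58, 11.52, 11.35, 11.56 and 11.86 in High lines, against 11.47, 11.24, 11.28, 10.68 and 11.57 in Low lines. High clone 5D4 was the highest line and Low clone 4D11 the lowest, and Low clones 1E7 and 4H4 lay inside the High range. The difference was 0.33 (SE 0.15, 95% confidence interval 0.001 to 0.658), a 1.26-fold higher mean in High lines, with a limma adjusted p of 0.628. Without Low clone 4D11 the difference was 0.19, and without Low clone 4H4 it was 0.41. Each array holds the RNA of a whole culture, so fewer cells with the transcript and less of it per cell cannot be told apart, here or for the other markers.

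Cd9 encodes a tetraspanin, a membrane protein with 4 spans that organises receptors at the cell surface. Its signal was 12.17, 11.82, 11.89, 11.65 and 11.86 in High lines, against 11.37, 11.38, 11.66, 11.73 and 11.74 in Low lines. High clone 5C4 lay below 3 of the Low lines, and the other 4 High lines lay above all 5 Low lines. The High mean was 1.23-fold the Low mean, a difference of 0.30 (SE 0.11; limma adjusted p = 0.49) whose 95% confidence interval ran from 0.07 to 0.54. The 827 tested genes of chromosome 6, which carries Cd9, had a median difference of 0.064. Of them, 81 had a higher and 6 a lower signal in High lines at an unadjusted limma p under 0.05. After the median of the 50 nearest genes was subtracted in each array, the difference of Cd9 was 0.19 (limma unadjusted p = 0.085). How far copy number or regional expression contributes was not tested.

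Thy1, the GPI-anchored surface protein CD90 of fibroblasts and mesenchymal cells, measured 12.83, 12.43, 12.54, 12.79 and 12.45 in High lines, against 12.13, 11.88, 12.41, 12.49 and 12.43 in Low lines. Low clones 2D7 and 1E7 were the dimmest and High clones 3F4 and 5C4 the brightest, while the other 3 Low lines lay next to the 3 lowest High lines. The High mean was 1.27-fold the Low mean, a difference of 0.34 (SE 0.13; limma adjusted p = 0.511) whose 95% confidence interval ran from 0.06 to 0.62. Without Low clone 2D7 the difference was 0.24, and without High clone 3F4 it was 0.28. Clone names that start with 4 occur in both classes, and a fit with the leading digit as a block therefore rests on High clones 4D2 and 4E3 and Low clones 4D11 and 4H4. There the difference of Thy1 was 0.02, that of Cd9 was 0.12 and that of Pdgfra was 0.31, with limma unadjusted p-values of 0.904, 0.4 and 0.259. The labels do not say what the digit stands for.

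**Figure D2:**
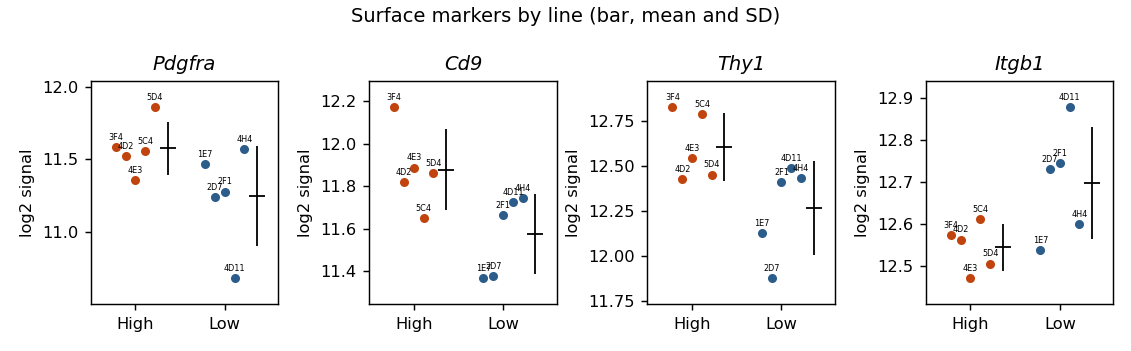
Log2 signal of Pdgfra, Cd9, Thy1 and Itgb1 (y axis, not starting at 0) in each High and Low line, with clone names; the bar beside each class is the mean with its SD over 5 lines. High and Low values overlap in every panel, with clone 4D11 lowest for Pdgfra at 10.68 and highest for Itgb1 at 12.88.

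Itgb1, the beta-1 integrin CD29 through which cells hold on to matrix, had the largest negative difference of the markers. It measured 12.57, 12.56, 12.47, 12.61 and 12.50 in High lines, against 12.54, 12.73, 12.74, 12.88 and 12.60 in Low lines. Low clones 2D7, 2F1 and 4D11 lay above all High lines, and Low clone 1E7 lay below 3 of them. The difference was -0.15 (SE 0.07, 95% confidence interval -0.31 to 0.00155; limma adjusted p = 0.629). Chromosome 8, which carries Itgb1, had a median difference of -0.073 over its 851 tested genes, and 175 of them had a lower and 9 a higher signal in High lines at an unadjusted p under 0.05. Once the 50 nearest genes' median had been taken off, the difference of Itgb1 was -0.03 (limma unadjusted p = 0.678). On these values clone 4D11 deviated by 0.16 from the mean of the 10 lines and clone 1E7 by -0.16, and the 5 High lines lay between -0.03 and 0.01. As deposited, 4D11 deviated by 0.26 and 1E7 by -0.08. For Itgb1 too, the part of copy number or regional expression was not tested.

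The difference of Twist1, on chromosome 12, turned its sign under the same subtraction. It was -0.04 as deposited and 0.08 with the nearest genes subtracted, on a chromosome whose median over 545 genes was -0.11. Of the 27 markers, Cd9, Itgb1 and Twist1 were those whose difference moved by more than 0.1 under this subtraction.

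**Figure D3:**
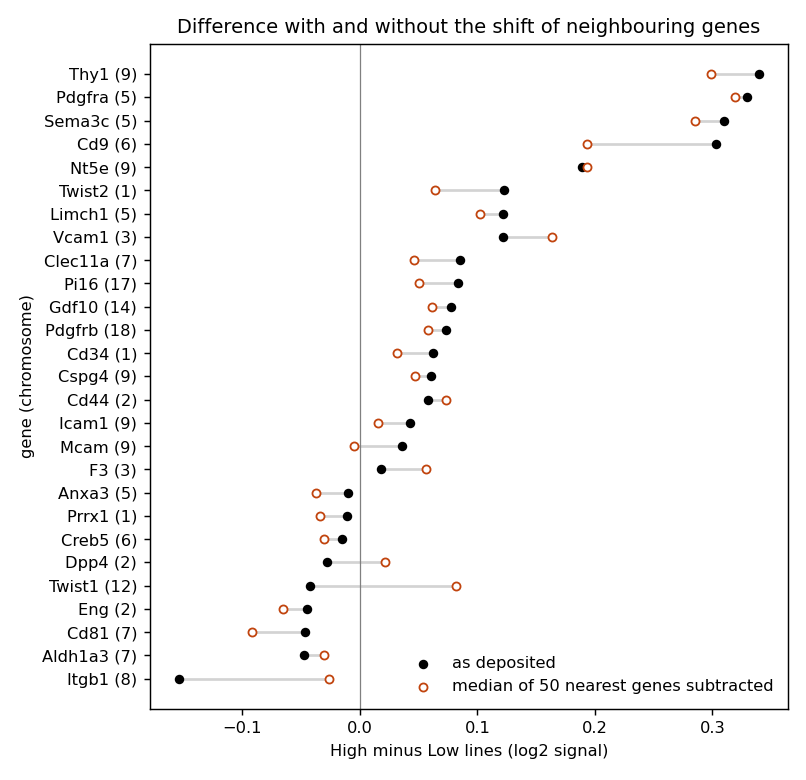
High minus Low difference in log2 signal (x axis) of the 27 tested markers, as deposited (filled) and with the median of the 50 nearest genes on the chromosome subtracted in each array (open); the chromosome is in brackets. Itgb1 moves from -0.15 to -0.03, Cd9 from 0.30 to 0.19 and Twist1 from -0.04 to 0.08, while Pdgfra stays at 0.32 after 0.33.

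The other 6 shared surface markers differed by less than 0.2. Nt5e, the ecto-5-prime-nucleotidase CD73, measured 6.99, 6.74, 6.54, 7.13 and 6.59 in High lines, against 6.62, 6.495, 6.65, 6.65 and 6.62 in Low lines. All these values lay below the array median. High clones 3F4 and 5C4 were the bright lines, and the Low lines sat close together (SD 0.07, against 0.25 in High lines; the difference between the SDs was not tested). The difference of 0.19 had a 95% confidence interval of -0.04 to 0.42, and it was 0.11 without High clone 5C4. Pdgfrb, the receptor shared by mesenchymal and mural cells, differed by 0.07 (95% confidence interval -0.12 to 0.27). The hyaluronan receptor gene Cd44 differed by 0.06, the tetraspanin gene Cd81 by -0.05 and Eng, the TGF-beta co-receptor endoglin, by -0.05. For these 4 genes the confidence intervals stayed between -0.18 and 0.27.

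Cd34, the sialomucin used to sort progenitors from fat, varied widely among lines of both classes, at a signal below the array median in all 10 arrays. It measured 7.12, 6.71, 6.41, 7.345 and 7.398 in High lines, against 6.72, 7.25, 6.74, 6.83 and 7.13 in Low lines. The dimmest line, 4E3, and the brightest, 5D4, were both High, a gap of 0.99. The difference between classes was 0.06 (95% confidence interval -0.34 to 0.46), and it was -0.04 without High clone 5D4.

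Among the 8 interstitial progenitor markers, 7 were tested, 3 with differences above 0 and 4 below, and none had an unadjusted p under 0.05. Dpp4, the peptidase CD26 that names this population, ran from 6.51 to 6.78 in High lines (median 6.56) and from 6.56 to 6.68 in Low lines (median 6.62). It lay below the array median in all 10 arrays. Pi16, a secreted peptidase inhibitor family member of the same cells, ran from 7.47 to 7.85 in High lines (median 7.63) and from 7.32 to 7.81 in Low lines (median 7.57). Pi16 exceeded the array median in 2 arrays. Neither gene separated the classes, with differences of -0.03 for Dpp4 (95% confidence interval -0.17 to 0.11) and 0.08 for Pi16 (95% confidence interval -0.12 to 0.29).

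Sema3c, a secreted semaphorin, had the largest difference of the interstitial list, 0.31 (95% confidence interval -0.11 to 0.73; limma adjusted p = 0.734). Its signal was 11.24, 10.765, 10.59, 10.93 and 10.56 in High lines, against 10.23, 10.63, 10.99, 9.93 and 10.75 in Low lines. Low clones 4D11 and 1E7 were the dimmest, and the other 3 Low lines fell within the High range. Without Low clone 4D11 the difference was 0.17.

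Aldh1a3, which makes retinoic acid, was bright in 1 line. It measured 8.29 in Low clone 2D7, against 7.54 to 7.66 in the other Low lines and 7.53 to 7.87 in High lines, and exceeded the array median in 2 arrays. The difference between classes was -0.05 with all lines and 0.09 without clone 2D7. Cd55, the complement decay-accelerating factor, measured 4.91, 5.13, 5.57, 4.89 and 6.57 in High lines, against 5.04, 5.48, 4.84, 5.09 and 5.64 in Low lines. High clone 5D4 was the 1 line of 10 above the 25th percentile of its array, and the difference of 0.20 had an exact permutation p of 0.659 (two-sided). Anxa3, an annexin that binds membranes, differed by -0.01, the transcription factor gene Creb5 by -0.02 and Limch1, which encodes an actomyosin regulator, by 0.12. Anxa3 was nearly even across lines, from 12.86 to 13.08, and Limch1 lay below the array median in all 10 arrays.

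Icam1 and Vcam1 encode adhesion receptors for leukocyte integrins, and ICAM1 marks committed preadipocytes in mouse fat. Icam1 measured 7.46 to 7.77 in High lines (median 7.70) and 7.54 to 7.78 in Low lines (median 7.56), and exceeded the array median in 1 array. Vcam1 measured 12.45, 12.10, 12.35, 12.37 and 12.39 in High lines, against 12.19, 12.18, 12.29, 12.01 and 12.38 in Low lines. Low clone 4D11 was the dimmest for Vcam1, and High clone 4D2 lay below 4 of the Low lines. The differences were 0.04 for Icam1 and 0.12 for Vcam1, with limma adjusted p-values of 0.888 and 0.772. That of Vcam1 was 0.07 without clone 4D11 and 0.03 with the leading digit as a block. Icam1 turned to -0.01 when a trend with brightness was removed.

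Of the 5 regulatory stromal markers, 3 were tested and their differences were within 0.09 of 0. F3, which encodes the coagulation receptor tissue factor, measured 11.37 to 11.78 in High lines (median 11.62) and 11.28 to 11.81 in Low lines (median 11.57), a difference of 0.02 (95% confidence interval -0.22 to 0.25). Its sign turned with the arrays centred on their medians, to -0.01. Clec11a, a secreted lectin growth factor, differed by 0.09 (95% confidence interval -0.09 to 0.26). Gdf10, a TGF-beta family ligand also called BMP3b, measured 7.75, 7.76, 7.61, 7.95 and 8.15 in High lines, against 7.64, 7.59, 8.19, 7.67 and 7.75 in Low lines. Its bright lines were 2F1, which is Low, and 5D4, which is High, and the classes differed by 0.08 (limma adjusted p = 0.877). Fmo2, a flavin monooxygenase, and the matrix protein gene Vit lay below the filter, with differences of 0.10 and 0.18 and exact permutation p-values of 0.198 and 0.127 (two-sided).

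Mcam, the adhesion molecule CD146 of mural and endothelial cells, varied more between lines than any other tested marker, with an SD of 0.51 over 10 lines. It measured 9.49, 8.80, 9.37, 9.06 and 8.82 in High lines, against 9.11, 8.86, 8.86, 10.21 and 8.33 in Low lines. The brightest line, 4D11, and the dimmest, 4H4, were both Low, 1.88 apart on the log2 scale. The classes differed by 0.04 (95% confidence interval -0.58 to 0.65), and by 0.32 without clone 4D11. Cspg4, the proteoglycan NG2, measured 7.77 in 4D11 and at least 7.57 in every line, so it did not follow Mcam there.

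Prrx1, Twist1 and Twist2 encode transcription factors of mesenchymal cells, and Twist proteins bind E boxes as basic helix-loop-helix dimers. Prrx1 had the smallest spread of the 27 markers, from 12.81 to 13.02 in High lines and 12.88 to 13.01 in Low lines. Twist2 measured 12.45, 12.63, 12.68, 12.46 and 12.78 in High lines, against 12.57, 12.40, 12.49, 12.19 and 12.735 in Low lines. Clone 4D11 was again the dimmest, and the difference was 0.12 (95% confidence interval -0.10 to 0.35), or 0.05 without that clone. Twist1 was brightest in Low clone 1E7 at 10.61 and dimmest in Low clone 2D7 at 9.95, with High lines between 10.12 and 10.47.

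**Figure D4:**
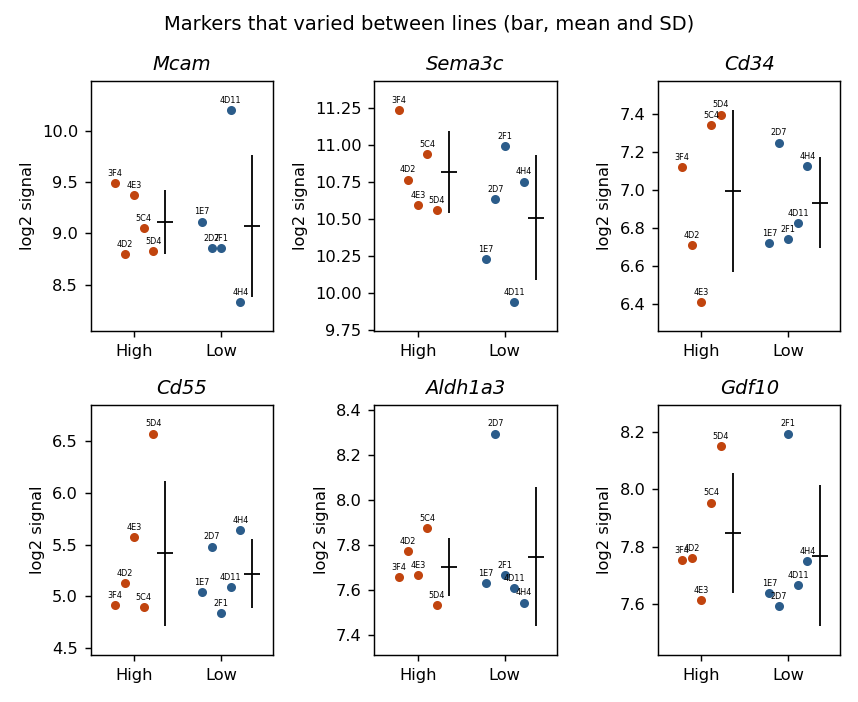
Log2 signal (y axis, not starting at 0) of Mcam, Sema3c, Cd34, Cd55, Aldh1a3 and Gdf10 in each High and Low line, with clone names; the bar is the mean with its SD over 5 lines. Single lines stand out in both classes, such as 4D11 for Mcam at 10.21, 5D4 for Cd55 at 6.57 and 2D7 for Aldh1a3 at 8.29.

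The SD over 10 lines had a median of 0.145 among the 27 markers and 0.140 among all genes tested. Of the markers, 15 exceeded the median of all genes and 5 exceeded their 90th percentile of 0.255, namely Mcam, Sema3c, Cd34, Pdgfra and Thy1. The most even were Prrx1 at 0.059, Anxa3 at 0.068, Creb5 at 0.075, Cd81 at 0.079 and Eng at 0.081.

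Read line by line on the values as deposited, no clone was at the top or bottom for a whole list of 3 or more. The ranks below rest on 1 array per line and were not set against the same ranks over all genes. For even markers they rest on small gaps, as for Prrx1, at 13.02 in High clone 5D4 and 13.01 in Low clone 2D7. High clone 3F4 had the highest signal of 10 lines for Pdgfrb, Cd9, Thy1, Sema3c, Limch1 and Vcam1, and the lowest for none of the 27. High clone 5D4 had the highest Pdgfra, Cd34, Cd44, Prrx1 and Twist2 and the lowest Dpp4, Eng, Anxa3 and Aldh1a3. High clone 5C4 was highest for Nt5e, Dpp4, Pi16, Creb5, Clec11a and Cspg4. On that array the dimmer 8169 genes deviated by a median of 0.164 from their mean over 10 lines, against -0.074 to 0.045 on the other arrays. With the brightness trend removed 5C4 was highest for Nt5e alone and lowest for Eng, and other lines changed places too. Clone 3F4 was then lowest for Cd44 and Dpp4 and no longer highest for Limch1. Clone 4D2 was highest for Clec11a, 4H4 for Dpp4 and 1E7 for Eng, Creb5 and Limch1 beside Twist1. Clone 5D4 gained the highest Gdf10, and was lowest for Anxa3 and Aldh1a3 alone. Clone 2F1 was highest for Cd81, Pi16, Icam1, F3 and Cspg4 and lowest for none. Clone 4D11 took the lowest Icam1 from 4E3. As deposited, High clone 4E3 was lowest for Cd34, Itgb1, Creb5 and Icam1, and High clone 4D2 for Cd81 and Prrx1. Neither was highest for any of the 27 on those values.

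Among Low lines, again as deposited, 4D11 had the highest Mcam and Itgb1 and the lowest Pdgfra, Sema3c, Vcam1, Clec11a and Twist2. Relative to the mean of 10 lines its Mcam deviated by 1.12, its Pdgfra by -0.73 and its Sema3c by -0.73. Low clone 2D7 had the highest Aldh1a3 and Anxa3 and the lowest Thy1, Nt5e, Gdf10, Cspg4 and Twist1. Low clone 2F1 was highest for Cd81, Eng, Icam1, F3 and Gdf10 and lowest for Cd44. Low clone 1E7 had the highest Twist1 and the lowest Cd9, Pi16 and F3, and 4H4 had the lowest Pdgfrb, Limch1 and Mcam and no highest value. Among the tested regulatory stromal markers the mean deviation was highest in 2F1, at 0.25, and lowest in 1E7, at -0.14, both Low lines.

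**Figure D5:**
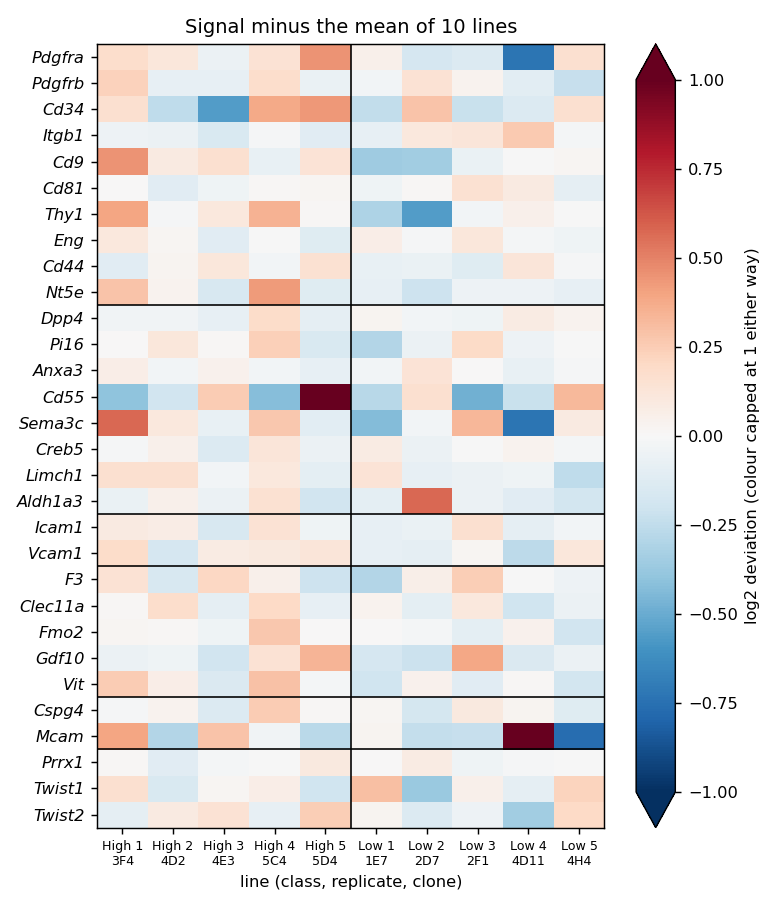
Log2 signal of each marker (rows, grouped by list between black lines) minus its mean over the 10 lines, in High lines (left 5 columns) and Low lines (right 5); red is above and blue below the mean, with the colour capped at 1. High and Low columns do not form 2 blocks, and column 4D11 has the strongest contrast, with Mcam at 1.12 and Pdgfra and Sema3c at -0.73.

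The upstream sequences of Pdgfra, Sema3c and Mcam are shown because these 3 markers set clone 4D11 apart, in opposite directions. They are RefSeq sequences of build GRCm38.p6, 250 bases before to 50 after the gene's start on the + strand, at chr5:75152001-75152300 for Pdgfra, chr5:17574566-17574865 for Sema3c and chr9:44134408-44134707 for Mcam. Capitals mark E boxes (CANNTG, which reads alike on both strands), the letters that Twist proteins bind.
Pdgfra: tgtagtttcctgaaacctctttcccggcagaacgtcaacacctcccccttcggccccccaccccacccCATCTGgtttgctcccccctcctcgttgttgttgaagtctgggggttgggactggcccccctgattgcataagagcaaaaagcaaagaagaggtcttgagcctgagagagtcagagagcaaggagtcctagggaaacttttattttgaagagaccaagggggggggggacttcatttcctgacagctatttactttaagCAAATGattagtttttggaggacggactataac
Sema3c: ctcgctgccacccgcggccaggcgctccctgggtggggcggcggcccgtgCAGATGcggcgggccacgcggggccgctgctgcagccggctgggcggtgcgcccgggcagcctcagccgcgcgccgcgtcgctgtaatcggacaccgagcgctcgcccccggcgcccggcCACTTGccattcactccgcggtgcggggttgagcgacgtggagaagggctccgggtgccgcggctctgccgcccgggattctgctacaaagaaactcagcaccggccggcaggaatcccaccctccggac
Mcam: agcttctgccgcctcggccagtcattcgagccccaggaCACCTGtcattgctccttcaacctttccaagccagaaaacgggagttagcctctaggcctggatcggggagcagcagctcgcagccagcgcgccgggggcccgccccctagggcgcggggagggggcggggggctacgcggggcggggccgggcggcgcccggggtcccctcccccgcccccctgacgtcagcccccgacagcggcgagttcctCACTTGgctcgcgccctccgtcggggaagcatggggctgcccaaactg

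Each of the 3 held 2 E boxes, and 72.3% of 32851 mouse promoters of the same length held at least 1. A GC box (GGGCGG, either strand) was found 3 times in Sema3c, 5 times in Mcam and not in Pdgfra, against at least 1 in 35.7% of all promoters. None of the 3 held TATAAA, which 13.6% did. G and C made up 51% of the Pdgfra sequence, 75.7% of that of Sema3c and 72.7% of that of Mcam. These matches describe the letters in the window and do not show binding.

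Other genes of the same populations were read from lists set by name. No list was tested as a set, and the counts for these lists stand beside 7.95% of all genes with an unadjusted p under 0.05. Of 9 further interstitial progenitor genes tested, 0 passed adjustment and 3 had an unadjusted p under 0.05. Efemp1, a fibulin matrix protein, and Il13ra1, an interleukin-13 receptor chain, were higher in mean, by 0.42 and 0.55, and Akr1c18, a steroid-metabolising reductase, was lower, by -0.89. Low clone 2F1 had the lowest Il13ra1, 9.73, and without it the difference was 0.30. Low clone 4D11 had the lowest Efemp1, 7.74, and the highest Akr1c18, 9.66.

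Of 14 further committed preadipocyte genes tested, 0 passed adjustment and 3 had an unadjusted p under 0.05, each higher in High lines. Of all genes, 7.95% reached that level, 3.16% with a higher signal in High lines. They were Pparg, the master regulator of adipogenesis (0.62), Fabp4, its fatty acid binding target (1.22), and Sparcl1, a matrix-associated glycoprotein (0.91). Pparg ran from 11.75 to 12.22 in High lines and from 11.13 to 11.67 in Low lines, so the classes did not overlap (limma adjusted p = 0.255). The same held for 1.57% of all genes tested. Cd36, a fatty acid transporter below the filter, did not overlap either, at 5.39 to 7.65 in High and 5.11 to 5.37 in Low lines. Its exact permutation p was 0.00794 (two-sided, unadjusted), the smallest the design allows. Cd36 exceeded the filter level on 2 arrays and is not among the genes behind the 1.57%. The share without overlap among genes below the filter was not counted. In the limma fit without a filter, the adjusted p of Cd36 was 0.443. Sparcl1 measured 11.45, 10.80, 11.44, 11.09 and 11.29 in High lines, against 9.79, 10.98, 10.92, 9.83 and 9.98 in Low lines. Low clones 2D7 and 2F1 exceeded High clone 4D2, and the limma adjusted p was 0.311. Cd24a was counted among the 14 genes although it is a marker of early progenitors. Its signal ran from 8.50 to 10.45 in High lines and from 6.62 to 11.14 in Low lines, and Dlk1, the preadipocyte factor Pref-1, differed by -0.04.

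Of 5 further regulatory stromal genes tested, Mgp, an inhibitor of calcification, alone had an unadjusted p under 0.05, at 8.87, 8.72, 9.29, 8.32 and 8.75 in High lines, against 9.32, 9.33, 9.59, 8.89 and 9.22 in Low lines. Low clones 4D11 and 4H4 were within the High range, and the difference of -0.48 had a limma adjusted p of 0.473. In the fit blocked on the digit that opens the clone name it was -0.05. Among 9 further mural and smooth muscle genes tested, Tagln (transgelin, which binds actin) was the 1 gene with an unadjusted p under 0.05, at a difference of -0.70 (limma adjusted p = 0.277), or -0.37 in the blocked fit (limma unadjusted p = 0.177). Acta2, smooth muscle actin, differed by -0.09. Clone 4D11, the line with the brightest Mcam, had the highest Acta2, 14.02 against 13.96 in 2F1, and the highest Cnn1, 8.99. It had the lowest Des, 7.94, and its Tagln, 11.27, was the lowest of the Low lines. No other gene of this list was highest in 4D11. Cnn1 (calponin) and Des (desmin) were singled out after their values were seen, as were Cd36, Cd68, Cd14, Cldn5, Lyz2, Plin1, Cidec, Pck1, Slc2a4, Retn, Lum and Fap.

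For endothelial, leukocyte, mesothelial and mature adipocyte markers, the summed signals of High and Low lines overlapped. That of the 9 further mural and smooth muscle genes did not, at 14.10 to 14.28 in High and 14.29 to 14.37 in Low lines. The sum of the mural markers Cspg4 and Mcam overlapped, at 9.38 to 9.86 in High and 9.02 to 10.45 in Low lines. These sums were not tested. Of 8 endothelial genes tested, 0 had an unadjusted p under 0.05, and the summed signal of the 9 with a probe set ran from 10.20 to 10.51 in High and 10.21 to 10.31 in Low lines, on the log2 scale. Of 6 mesothelial genes tested and of 5 mature adipocyte genes tested, 0 reached that level, and their sums ran from 10.34 to 10.55 and 10.03 to 10.38 in High lines, against 10.26 to 10.62 and 10.03 to 10.17 in Low lines. Of 5 leukocyte genes tested, 1 did, Csf1r, the receptor for colony-stimulating factor 1, with a difference of -0.16 (limma adjusted p = 0.574). Its classes did not overlap, at 7.44 to 7.70 in High and 7.71 to 7.84 in Low lines, which held for 1.57% of all genes tested. The leukocyte sum ran from 10.62 to 10.86 in High and 10.52 to 10.72 in Low lines. Among 8 fibroblast genes tested, 0 had an unadjusted p under 0.05, and Fap and Lum lay below the 25th percentile in all 10 arrays.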

How the data were processed

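The deposited values are log2 intensities, 1 per array and probe set, made with RMA per the submitters' processing notes. RMA pulls arrays towards a common distribution. Its settings and the array batches, if any, were not given in the sources used here. Of 34760 probe sets, 21640 carried 1 gene symbol, 1321 several, and 11799 were unnamed here. RefSeq's gene table (GRCm38.p6) gave chromosomes and neighbours.

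The contrast of High minus Low was fitted in R 4.3.3 with limma 3.58.1 (lmFit and eBayes, two-sided tests), with Benjamini and Hochberg's adjustment over the 16339 genes. The fit was tested on simulated data of 16339 genes with 5 arrays a class. There 50 genes were changed at each of 1.25, 1.5, 2 and 4-fold. Of these, 36% at 1.25-fold and 78% at 1.5-fold were recovered, and 10 of 159 calls were false. The adjustment depends on how many genes change. In the real data 1 gene passed, so these shares do not give the recovery for the markers. Genes below the filter had an exact permutation test over 252 assignments (smallest p 0.00794). Arrays have no counting depth, so 5 lines a class limit the precision. Tables used Python 3.11.15 and pandas 2.3.3. Members and lists were chosen with earlier results of these data known. Named are all markers, a fixed panel, and up to 4 genes per other list with the smallest p under 0.05. Alternatives were the filter, probe sets, scaling, variance model, array weights, leading digit and each line left out. Removal of neighbours' and brightness trends was added after the data were seen.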

Additional observations from a re-analysis of the deposited data

Results flagged for a closer look

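In 94 sets of 5 values, 8 had 1 line far from the other 4, where about 4.7 would be by chance. High clone 5C4 (replicate 4) stood apart for Dpp4 at 6.78, against 6.51 to 6.56 in the other High lines. It did so too for Fmo2 at 6.38, against 6.07 to 6.13, and for Adipoq at 6.08, against 5.71 to 5.80. On that array the dimmer 8169 of the tested genes deviated by a median of 0.164, and its part in these values was not tested. Low clone 2D7 (replicate 2) measured 8.29 for Aldh1a3, against 7.54 to 7.66 in the other Low lines. The same clone measured 6.5 for Nt5e, against 6.62 to 6.65, and 5.78 for Adipoq, against 5.93 to 5.99. Low clone 2F1 (replicate 3) measured 7.78 for Icam1, against 7.54 to 7.60, and 8.19 for Gdf10, against 7.59 to 7.75.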

How the results depend on the processing

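Under all 20 alternatives 0 of the markers passed the adjusted threshold. Of 27 markers, 15 kept the sign of their difference throughout and 12 did not. Changes of the filter or variance model could not alter a difference, nor could averaging probe sets, as each marker had 1. Markers that the stricter filter left out, such as Cd34 and Dpp4, had 19 alternatives. The number of genes past the threshold was 1, and it was 2 with arrays centred on their medians, 3 with array weights and 0 with the clone name's leading digit as a block. Leaving out lines gave 1 to 19 genes, with 19 when High replicate 5 (5D4) was left out and 2 when Low replicate 3 or 5 was. The 3 markers with an unadjusted limma p under 0.05 were 0 with that block and 1 with neighbouring genes removed. They were 1 to 5 with lines left out, 1 without High replicate 1 (3F4) and 5 without Low replicate 1 (1E7). With the block, Cd34 differed by -0.42, Anxa3 by 0.054, Aldh1a3 by 0.14, Gdf10 by -0.021, Cspg4 by -0.0042 and Mcam by -0.18. With neighbouring genes removed, Dpp4 differed by 0.021, Mcam by -0.0048, Twist1 by 0.082 and Vim by 0.016. With the brightness trend removed, Anxa3 differed by 0.0036, Icam1 by -0.013 and Prrx1 by 0.0041. Icam1 differed by -0.0032 with repeated quantile normalization, and F3 by -0.013 with centred arrays. With lines left out in turn, Cd34 ran from -0.038 to 0.21, Anxa3 from -0.031 to 0.023, Creb5 from -0.047 to 0.017, Aldh1a3 from -0.098 to 0.090, F3 from -0.053 to 0.081, Mcam from -0.15 to 0.32, Prrx1 from -0.036 to 0.015, Twist1 from -0.14 to 0.027 and Cd24a from -0.31 to 0.82. The causes of these turns were not tested. No paired analysis was possible because the replicate numbers follow accession order and tie no High line to a Low line. Pparg and Fabp4 passed without High replicate 5, at 0.68 and 1.51.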
